A study of Rattus norvegicus with 12 samples.

Results

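The genes described here make, break down and read cyclic AMP (cAMP) in rat theca-interstitial cells, ovarian cells that surround the follicle and make androgens. They are the adenylyl cyclases (Adcy), the cyclic nucleotide phosphodiesterases (Pde), the catalytic and regulatory subunits of protein kinase A (PKA, Prka) and the A-kinase anchoring proteins (Akap). They were chosen by symbol, with at least 20 counts summed over the 12 libraries. The rule does not use their response, but earlier results of these data were known when it was set. Of 30045 rows in the count table, 52 matched and 50 reached the minimum, namely 10 cyclases, 20 phosphodiesterases, 6 PKA subunits and 14 anchoring proteins. Adcy8 and Akap4 lay just inside the minimum with 23 counts each, and Pde6c and Pde6b just outside with 15 and 5.

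Cultured theca-interstitial cells were given rat IL-1β (a cytokine whose dose the labels do not state), bacterial lipopolysaccharide (LPS) at 1 µg/ml, or vehicle (control). All cells came from wild-type female Sprague Dawley rats at postnatal day 30 and were grown on human fibronectin in McCoy's medium. RNA was sequenced after 48 h, with 4 libraries per group. The labels do not say that replicates came from separate animals, so every p-value speaks only to the spread among these libraries, which may be technical.

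In theca cells, luteinizing hormone acts through its receptor and a stimulatory G protein on adenylyl cyclase, and the cAMP that is formed releases the catalytic subunits of PKA from the regulatory ones. PKA activity then raises cholesterol delivery and androgen synthesis. Phosphodiesterases end the signal by hydrolysing cAMP, cyclic GMP (cGMP) or both, and anchoring proteins hold PKA at particular membranes and organelles.

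Libraries held 23193408 to 26836323 counts with IL-1β, 25643226 to 28698783 with LPS and 20873934 to 32090924 in controls. Levels are given as CPM, counts scaled to a common library total with edgeR's TMM factors, which ranged between 0.976 and 1.02. Differences were tested over 17330 genes with edgeR's quasi-likelihood test. A gene counted as called, whatever its fold, once its Benjamini-Hochberg adjusted p fell below 0.05. Fold changes are log2 values ± SE, with n = 4 libraries a group throughout, and means are given ± SD. Of 8 theca and steroidogenic markers, 8 were called higher with IL-1β and 7 with LPS. Their summed level was 1268 to 1488 CPM with IL-1β, 866 to 1014 CPM with LPS and 523 to 533 CPM in controls, where Cyp17a1, the androgen-forming lyase of theca cells, averaged only 0.537 ± 0.101 CPM.

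Phosphodiesterase genes, the largest class with 19 tested, made up most of the rises. Cyclase genes (9 tested) and anchoring protein genes (11 tested) made up most of the falls. The share called in either direction was 47.4% of phosphodiesterases with IL-1β and 42.1% with LPS. It was 55.6% of cyclases with each stimulus, and 63.6% and 54.5% of anchoring proteins. Of the 6 PKA subunits, 16.7% were called with IL-1β and 83.3% with LPS. Of 45 members tested with IL-1β, 11 were called higher, 11 lower and 23 not called. Over all genes tested, 47.7% were called with IL-1β, 24.7% higher and 23.0% lower. With LPS, 13 members were called higher, 11 lower and 21 not called, against 42.5% of all genes called, 22.5% higher and 20.0% lower. The members' share called was 48.9% with IL-1β, close to the background, and 53.3% with LPS. Their median absolute log2 fold change was 0.26 with IL-1β and 0.24 with LPS, against 0.17 and 0.15 over all genes. The IL-1β and LPS comparisons share the control libraries, so they are given side by side. Adcy8, Akap4, Pde11a, Akap14 and Akap3 fell under the filter on low counts and were not tested, with 23, 23, 50, 64 and 92 counts in all 12 libraries together.

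**Figure D1:**
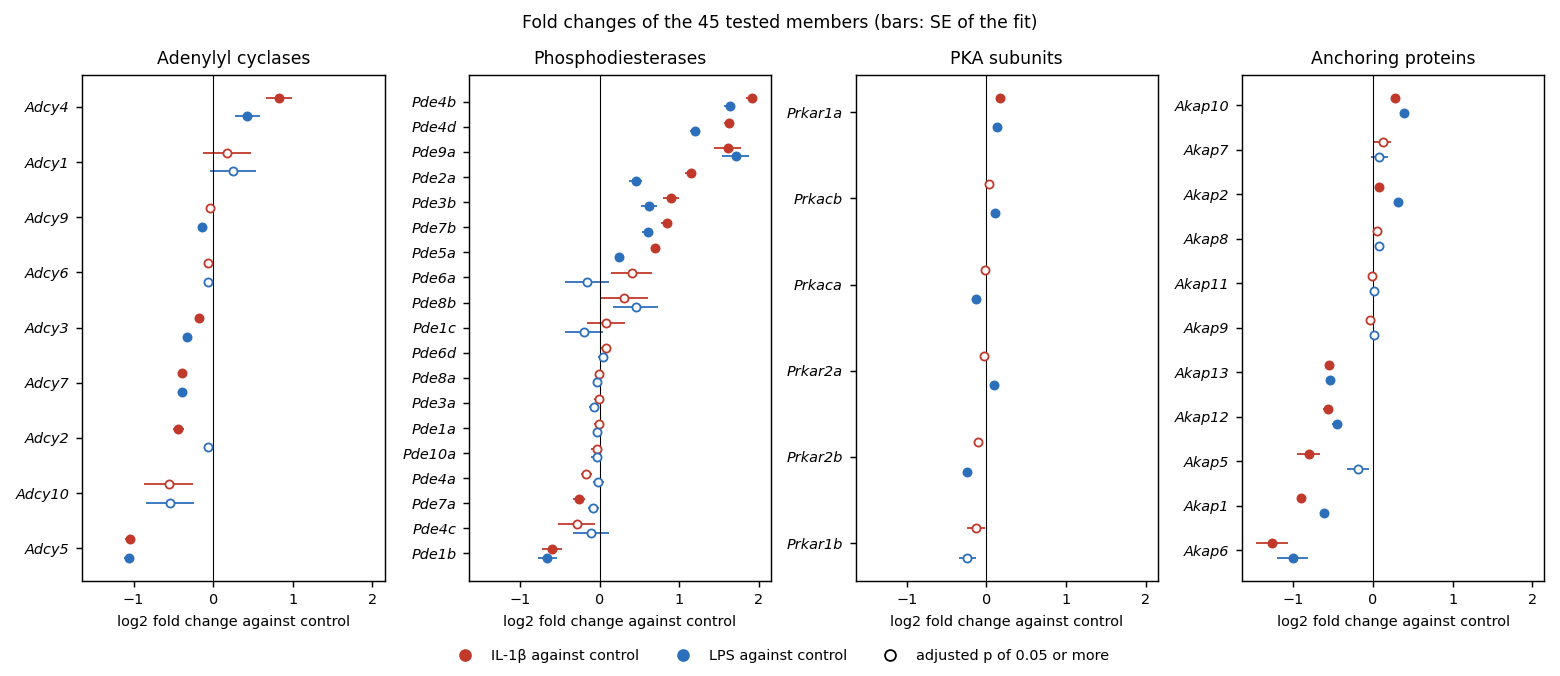
Log2 fold change with standard error for the tested members, by class, with IL-1β against control and LPS against control. Pde4b, Pde9a and Pde4d lie farthest to the right and Adcy5, Akap6 and Akap1 farthest to the left with IL-1β, and filled points mark calls at an adjusted p under 0.05.

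Among the cyclases, which form cAMP from ATP, 1 of 9 tested was called higher and 4 lower with each stimulus. Adcy5, a membrane cyclase inhibited by calcium and by inhibitory G proteins, stood at 15.4, 14.5, 13.9 and 14.8 CPM in the IL-1β libraries, at 15.2, 13.4, 14.7 and 15.2 CPM in the LPS libraries, and at 28.6, 30.5, 29.0 and 33.1 CPM in the control libraries. Every treated library lay below every control library, and the treated groups overlapped each other. Adcy5 fell by 1.05 ± 0.06 on the log2 scale with IL-1β (adjusted p = 1.37e-14) and by 1.06 ± 0.06 with LPS (adjusted p = 1.13e-14). In bulk cultures, fewer cells of a type and less RNA per cell cannot be told apart. Summed smooth muscle and pericyte markers also stood lower in treated cultures, at 1653 to 1874 CPM with IL-1β and 1958 to 2196 CPM with LPS, against 4934 to 5347 CPM in controls. Of these 10 markers, 8 were called lower and 1 higher with IL-1β, 9 lower with LPS, and none was at 0. Their part in the falls of Adcy5 and of the other lower members was not tested.

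Adcy4, a cyclase stimulated by G protein beta-gamma subunits, was the only cyclase called higher. It stood at 14.0, 13.9, 11.8 and 12.4 CPM in the IL-1β libraries, at 13, 10.1, 7.91 and 8.36 CPM in the LPS libraries, and at 8.76, 6.91, 5.81 and 7.44 CPM in the control libraries. The IL-1β libraries lay above all controls, while the LPS libraries overlapped them. Adcy4 rose by 0.83 ± 0.16 with IL-1β (adjusted p = 6.99e-04). With LPS the change was 0.43 ± 0.16 (adjusted p = 0.0477), and this call was lost without control replicate 2, 3 or 4 (0.40, 0.35 and 0.44), without LPS replicate 1 or 2 (0.27 and 0.41), with DESeq2 or upper-quartile scaling factors (0.42 each) and in a fit of the LPS and control libraries alone (0.43, adjusted p = 0.0833). All 10 endothelial markers were called higher with IL-1β and 9 with LPS, and none was at 0. Their summed level was 386 to 437 CPM with IL-1β. In replicates 1 to 4 it was 359, 342, 266 and 291 CPM with LPS, and 210, 183, 178 and 186 CPM in controls. The part of these markers in the rises of Adcy4 and of the phosphodiesterases described next was not tested.

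The remaining cyclases moved less. Adcy7 averaged 67.7 ± 4.11 CPM with IL-1β, 67.3 ± 2.44 CPM with LPS and 88.6 ± 1.74 CPM in controls, and it fell by 0.39 ± 0.04 with each stimulus (adjusted p = 1.25e-09 and 9.67e-10). Adcy3, a calmodulin-sensitive cyclase, fell by 0.18 ± 0.05 with IL-1β and by 0.33 ± 0.05 with LPS (adjusted p = 0.00801 and 1.69e-05), the IL-1β call being lost when scaled by library size alone (-0.13). Adcy2 fell to 9.0 ± 0.401 CPM with IL-1β, against 12.2 ± 0.718 CPM in controls (-0.44 ± 0.07, adjusted p = 4.36e-06), and stood at 11.7 ± 0.228 CPM with LPS (-0.06 ± 0.06, adjusted p = 0.478). Adcy9 fell by 0.14 ± 0.04 with LPS (adjusted p = 0.00640) and was not called with IL-1β (-0.04 ± 0.04). Adcy6 was not called with IL-1β or LPS (-0.07 ± 0.03 in each), but was called lower with DESeq2 scaling factors (-0.08 in each). It was also called lower with LPS without LPS replicate 1 (-0.10, adjusted p = 0.00768) or with upper-quartile factors (-0.08, adjusted p = 0.0343), and with IL-1β in a fit of the IL-1β and control libraries alone (-0.07, adjusted p = 0.0256). Not called either were the low-count Adcy1 and the soluble, bicarbonate-sensitive Adcy10. Adcy10 averaged 0.443 ± 0.105 CPM with IL-1β, 0.451 ± 0.240 CPM with LPS and 0.678 ± 0.149 CPM in controls, and it was called lower with LPS once LPS replicate 2 was left out (-0.99, adjusted p = 0.0117).

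**Figure D2:**
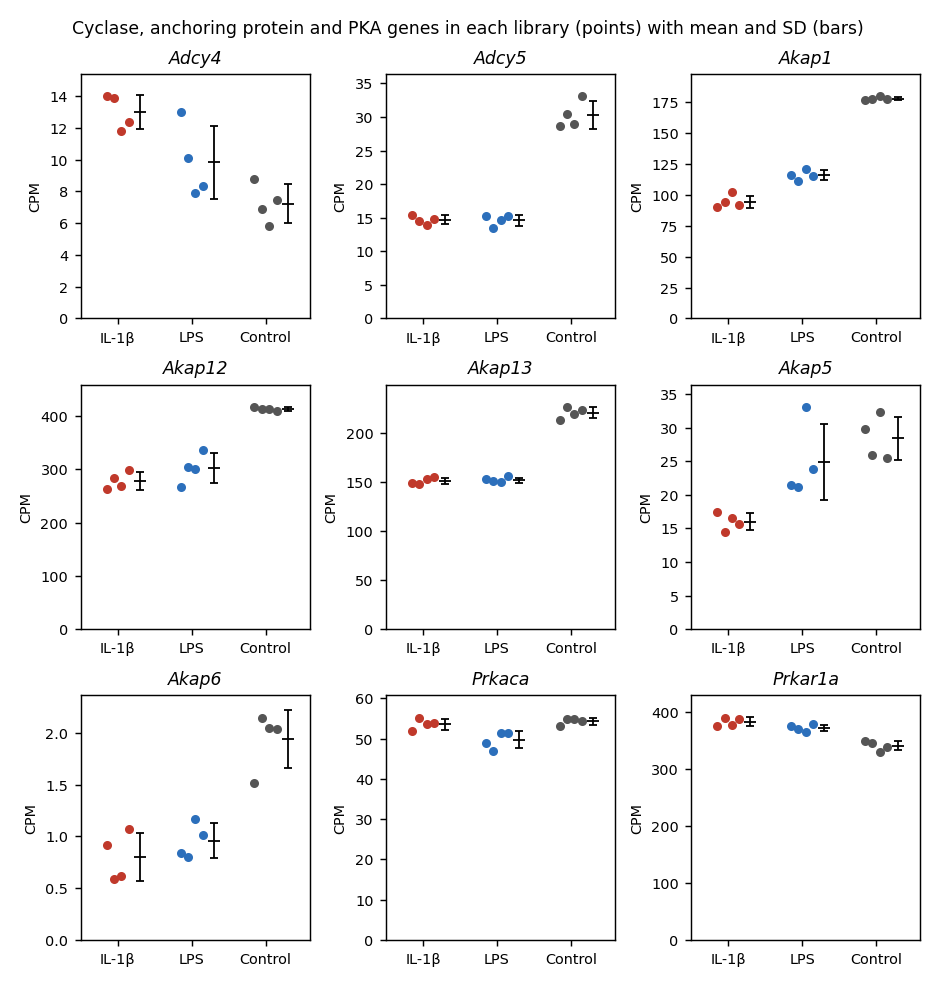
CPM in each library for the cyclases, PKA subunits and anchoring proteins shown library by library in the text, with IL-1β at left, LPS in the middle and control at right. Points are libraries and bars are means ± SD, and each y axis starts at 0 with its own scale. Every Adcy5, Akap1, Akap12 and Akap13 point of a treated culture lies below every control point.

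Of 19 phosphodiesterases tested, 7 were called higher and 2 lower with IL-1β, and 7 higher and 1 lower with LPS. The 7 were Pde2a, Pde3b, Pde4b, Pde4d, Pde5a, Pde7b and Pde9a with each stimulus. By substrate they comprise enzymes specific to cAMP (Pde4b, Pde4d, Pde7b), a cGMP-inhibited cAMP enzyme (Pde3b), a cGMP-stimulated enzyme of both substrates (Pde2a) and enzymes specific to cGMP (Pde5a, Pde9a).

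The start-site sequences of Pde4b, Pde4d and Pde5a are shown as examples among the risen phosphodiesterases with RefSeq promoter windows: Pde4b and Pde4d rose most of these, and Pde5a held an NF-kB match. The windows were searched for CRE and NF-kB motifs, the sites of CREB and NF-kB factors. Pde2a, also risen, had windows with no match and is not shown. Each window holds the 250 bases before an annotated start on build GRCr8, 5′ to 3′ on the gene's strand. Capitals mark matches, on either strand, to TGACG (read as CGTCA on the other) or to the NF-kB consensus. The windows are Pde4b chr5:122028706-122028955 and chr5:122222323-122222572, Pde4d chr2:42592499-42592748 and chr2:42767367-42767616, and Pde5a chr2:213543776-213544025, all on the plus strand.
Pde4b window 1: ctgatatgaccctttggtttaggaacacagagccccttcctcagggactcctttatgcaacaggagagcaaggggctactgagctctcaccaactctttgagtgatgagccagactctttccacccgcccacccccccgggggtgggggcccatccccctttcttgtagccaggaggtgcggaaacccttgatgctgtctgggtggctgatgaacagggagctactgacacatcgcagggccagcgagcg
Pde4b window 2: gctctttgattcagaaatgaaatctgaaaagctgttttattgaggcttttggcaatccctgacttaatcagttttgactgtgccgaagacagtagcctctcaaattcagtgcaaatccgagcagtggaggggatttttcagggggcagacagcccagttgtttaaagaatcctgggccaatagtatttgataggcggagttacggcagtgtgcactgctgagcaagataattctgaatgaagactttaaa
Pde4d window 3: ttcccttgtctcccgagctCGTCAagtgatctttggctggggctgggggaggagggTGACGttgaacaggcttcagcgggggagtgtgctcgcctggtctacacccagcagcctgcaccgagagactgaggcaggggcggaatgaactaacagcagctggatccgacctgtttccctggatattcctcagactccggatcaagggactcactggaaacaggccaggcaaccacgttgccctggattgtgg
Pde4d window 4: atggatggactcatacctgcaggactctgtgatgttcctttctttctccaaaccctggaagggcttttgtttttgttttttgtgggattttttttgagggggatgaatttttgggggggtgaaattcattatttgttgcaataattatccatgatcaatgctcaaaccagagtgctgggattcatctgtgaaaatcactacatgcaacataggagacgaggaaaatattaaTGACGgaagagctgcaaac
Pde5a window 1: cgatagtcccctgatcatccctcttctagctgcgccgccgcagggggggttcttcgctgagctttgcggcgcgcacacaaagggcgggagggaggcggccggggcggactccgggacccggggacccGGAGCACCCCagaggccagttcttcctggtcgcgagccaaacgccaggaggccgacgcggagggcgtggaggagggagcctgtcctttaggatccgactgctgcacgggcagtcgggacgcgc
Neither Pde4b window held a match. Pde4d window 3 held the CRE core at 231 and 194 bases before the start and window 4 at 19 bases, while the other Pde4d windows held none. Pde5a held the NF-kB consensus at 123 bases, on the strand opposite to the one printed. The full CRE palindrome TGACGTCA, which contains TGACG on each strand, was in the windows of 0 of 39 members with one, against 1.78% of 27457 genes. The core TGACG was in those of 8 members (20.5%, against 20% of genes) and the NF-kB consensus in those of 4 (10.3%, against 6.92%). A gene counted as a holder when any of its windows matched, and these shares are not corrected for the number of windows. Several windows were present for 8 of the 39 members, and the 27457 genes had 33469 windows. The other holders of TGACG were Adcy9, Akap2, Akap11, Pde4a, Pde8a, Pde10a and Prkaca, and of the NF-kB consensus Akap9, Akap10 and Pde11a. Of these, Akap2 and Akap10 were called higher with each stimulus, Adcy9 and Prkaca lower with LPS, and the others not called or not tested. RefSeq joins Akap2 with Palm2, and the joined gene held its match in window 1 but not in window 2. Whether the start after window 1 serves Akap2 was not tested. A match describes letters in this window only.

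Pde4b, a cAMP-specific enzyme of the rolipram-sensitive family, had the largest rise with IL-1β among the members tested. It stood at 30.4, 28.2, 27.4 and 28.9 CPM in the IL-1β libraries, at 25.4, 21.9, 22.2 and 25.0 CPM in the LPS libraries, and at 8.0, 6.91, 7.71 and 7.77 CPM in the control libraries. No treated library came near a control, and the IL-1β libraries all lay above the LPS libraries. Pde4b rose 3.77-fold with IL-1β (1.91 ± 0.07, adjusted p = 2.89e-19) and 3.10-fold with LPS (1.63 ± 0.07, adjusted p = 1.44e-17).

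Pde4d, of the same family, stood at 27.8, 27.2, 24.5 and 26.4 CPM in the IL-1β libraries, at 19.3, 18.5, 20.2 and 21.0 CPM in the LPS libraries, and at 9.17, 8.35, 8.44 and 8.46 CPM in the control libraries. The groups did not overlap, with IL-1β highest and control lowest. Pde4d rose 3.06-fold with IL-1β (1.62 ± 0.06, adjusted p = 2.79e-18) and 2.29-fold with LPS (1.19 ± 0.06, adjusted p = 5.04e-15). The other family members did not follow: Pde4a was at -0.17 ± 0.07 with IL-1β (adjusted p = 0.0543) and -0.02 ± 0.07 with LPS (adjusted p = 0.816). Pde4a was called lower with IL-1β without control replicate 1 (-0.19) or IL-1β replicate 4 (-0.22). The same call came with DESeq2 scaling factors (-0.17, adjusted p = 0.0452) and in a fit of the IL-1β and control libraries alone (-0.17, adjusted p = 0.0432). Low-count Pde4c averaged 0.952 ± 0.306 CPM with IL-1β, 1.09 ± 0.223 CPM with LPS and 1.19 ± 0.253 CPM in controls and was not called.

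Pde7b, a cAMP-specific enzyme that rolipram does not inhibit, stood at 71.7, 69.3, 66.7 and 78.1 CPM in the IL-1β libraries, at 60.3, 69.2, 52.9 and 59.4 CPM in the LPS libraries, and at 40.2, 39.6, 37.9 and 41.5 CPM in the control libraries. All treated libraries lay above all controls, and LPS replicate 2 fell within the IL-1β range. Pde7b rose by 0.84 ± 0.07 with IL-1β (adjusted p = 3.17e-07) and by 0.60 ± 0.07 with LPS (adjusted p = 1.27e-05). Its relative Pde7a went the other way with IL-1β, to 21.2 ± 1.40 CPM against 25.4 ± 2.73 CPM in controls (-0.26 ± 0.07, adjusted p = 0.00270), and was not called with LPS (-0.08 ± 0.07).

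Pde3b, the cGMP-inhibited enzyme that insulin activates in fat and liver, stood at 8.79, 8.24, 8.16 and 8.59 CPM in the IL-1β libraries, at 7.68, 6.12, 6.94 and 7.28 CPM in the LPS libraries, and at 4.12, 5.74, 4.39 and 4.02 CPM in the control libraries. The groups did not overlap, though control replicate 2 lay close below the lowest LPS library. Pde3b rose by 0.89 ± 0.10 with IL-1β (adjusted p = 2.66e-08) and by 0.62 ± 0.10 with LPS (adjusted p = 1.53e-05). Pde3a, its close relative, averaged 23.2 ± 1.27 CPM with IL-1β, 22.3 ± 0.989 CPM with LPS and 23.4 ± 2.32 CPM in controls and was not called.

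Pde2a, which cGMP stimulates, stood at 20.5, 21.9, 21.6 and 20.9 CPM in the IL-1β libraries, at 15.7, 13, 11.4 and 12.6 CPM in the LPS libraries, and at 9.07, 9.87, 9.56 and 10.0 CPM in the control libraries. The groups were separate. LPS replicate 1, the highest LPS library for Pde2a, also had the highest endothelial marker sum of the LPS libraries. Control replicate 1 had the highest endothelial marker sum of the controls (210 CPM) but the lowest Pde2a level (9.07 CPM). A link between the 2 was not tested. Pde2a rose 2.20-fold with IL-1β (1.14 ± 0.07, adjusted p = 3.11e-13) and 1.37-fold with LPS (0.45 ± 0.08, adjusted p = 2.61e-05).

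Both cGMP-specific enzymes that passed the filter at more than 1 CPM rose as well. Pde5a, the target of sildenafil, stood at 75.4, 74.7, 74.9 and 70.0 CPM in the IL-1β libraries, at 59.0, 52.2, 50.6 and 53.1 CPM in the LPS libraries, and at 45.8, 42.7, 46.3 and 47.8 CPM in the control libraries. The groups did not overlap. Pde5a rose by 0.69 ± 0.04 with IL-1β (adjusted p = 1.85e-13) and by 0.24 ± 0.04 with LPS (adjusted p = 8.90e-05). Pde9a, a high-affinity cGMP enzyme, stood at 5.03, 7.27, 4.83 and 6.24 CPM in the IL-1β libraries, at 7.21, 6.12, 5.11 and 6.30 CPM in the LPS libraries, and at 1.33, 2.46, 1.95 and 1.94 CPM in the control libraries. The treated groups overlapped each other and lay above all controls. Pde9a rose 3.06-fold with IL-1β (1.61 ± 0.17, adjusted p = 8.26e-08) and 3.26-fold with LPS (1.71 ± 0.17, adjusted p = 3.24e-08).

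Pde1b, a calcium- and calmodulin-activated enzyme, was the phosphodiesterase called lower with each stimulus. It stood at 2.53, 2.66, 2.89 and 2.82 CPM in the IL-1β libraries, at 2.52, 2.62, 2.69 and 2.62 CPM in the LPS libraries, and at 3.43, 4.06, 4.49 and 4.64 CPM in the control libraries. All treated libraries lay below all controls. Pde1b fell by 0.60 ± 0.12 with IL-1β (adjusted p = 1.35e-04) and by 0.66 ± 0.12 with LPS (adjusted p = 4.21e-05). Its relatives Pde1a and Pde1c were not called, at -0.01 ± 0.06 and 0.08 ± 0.24 with IL-1β and -0.03 ± 0.06 and -0.20 ± 0.24 with LPS. Macrophage markers, 8 of 11 called lower and 1 higher with IL-1β and 9 lower and 1 higher with LPS, summed to 57.8 to 62.3 CPM with IL-1β, 50.7 to 56.8 CPM with LPS and 111 to 117 CPM in controls, and their part was not tested.

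The other phosphodiesterases were not called with IL-1β or LPS. Pde8a, a high-affinity cAMP enzyme, averaged 112 ± 5.13 CPM with IL-1β, 111 ± 2.36 CPM with LPS and 113 ± 2.58 CPM in controls. Pde10a, which hydrolyses both nucleotides, and Pde6d, a prenyl-binding partner of the photoreceptor enzyme, lay within 0.08 of 0 on the log2 scale in both comparisons. Pde8b and the photoreceptor enzyme Pde6a stayed under 1 CPM in every library.

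**Figure D3:**
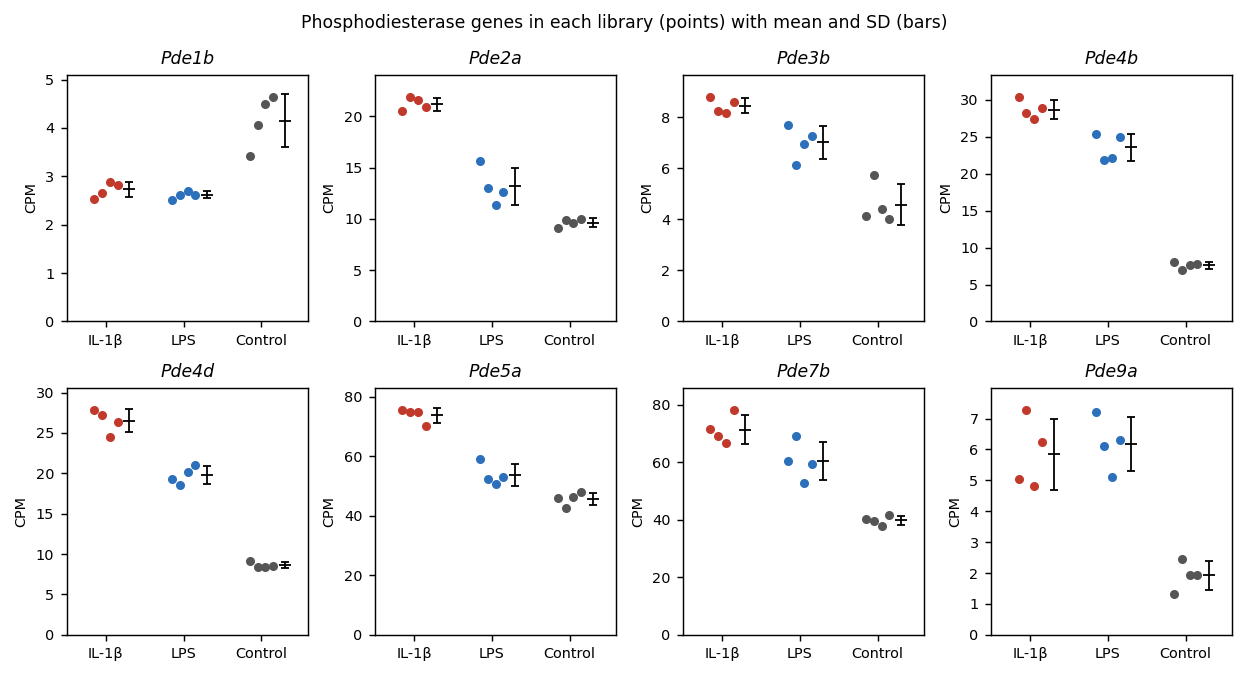
CPM in each library for the phosphodiesterases shown library by library in the text, with IL-1β at left, LPS in the middle and control at right. Points are libraries and bars are means ± SD, and each y axis starts at 0 with its own scale. Pde4b and Pde4d lie between 18.5 and 30.4 CPM in all treated libraries and at or below 9.17 CPM in controls, and Pde1b is the gene drawn here that is lower in treated cultures.

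PKA subunit transcripts moved by small amounts. Of 6 tested, 1 was called higher with IL-1β, and 3 were called higher and 2 lower with LPS, the largest change being 0.24 on the log2 scale. Prkar1a, a type I regulatory subunit, stood at 375, 390, 377 and 388 CPM in the IL-1β libraries, at 376, 370, 365 and 378 CPM in the LPS libraries, and at 349, 345, 330 and 338 CPM in the control libraries. All treated libraries lay above all controls, by a small margin. Prkar1a rose by 0.17 ± 0.03 with IL-1β (adjusted p = 6.33e-06) and by 0.13 ± 0.03 with LPS (adjusted p = 2.41e-04).

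Prkaca, the catalytic alpha subunit, stood at 51.8, 55.2, 53.6 and 53.9 CPM in the IL-1β libraries, at 49.0, 46.9, 51.3 and 51.5 CPM in the LPS libraries, and at 53.1, 54.9, 54.8 and 54.4 CPM in the control libraries. IL-1β libraries overlapped controls, and LPS libraries lay below them. Prkaca was at -0.02 ± 0.04 with IL-1β (adjusted p = 0.734) and fell by 0.13 ± 0.04 with LPS (adjusted p = 0.00643). Prkacb, the beta subunit, was at 0.03 ± 0.03 with IL-1β and rose by 0.11 ± 0.03 with LPS (adjusted p = 0.0109), a call lost without LPS replicate 2 (0.09). Prkar2b, a type II regulatory subunit, was at -0.10 ± 0.05 with IL-1β (adjusted p = 0.136, called without IL-1β replicate 1 at -0.14) and fell by 0.24 ± 0.05 with LPS (adjusted p = 0.00201). Prkar2a rose by 0.10 ± 0.03 with LPS (adjusted p = 0.0220), but not without control replicate 2, LPS replicate 3 or LPS replicate 4 (0.09, 0.06 and 0.09) nor in DESeq2 (0.09, adjusted p = 0.0549), and Prkar1b was not called. As a share of all regulatory subunit counts, without correction for length, Prkar1a made up 59.8% ± 1.39 with IL-1β, 59.3% ± 0.941 with LPS and 55.8% ± 0.680 in controls.

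Of 11 anchoring proteins tested, 2 were called higher and 5 lower with IL-1β, and 2 higher and 4 lower with LPS. Akap1, which anchors PKA at the mitochondrial outer membrane, stood at 90.5, 94.1, 102 and 92.1 CPM in the IL-1β libraries, at 116, 111, 121 and 115 CPM in the LPS libraries, and at 177, 178, 180 and 178 CPM in the control libraries. The groups were fully separate, with IL-1β lowest. Akap1 fell by 0.91 ± 0.03 with IL-1β (adjusted p = 8.34e-19) and by 0.62 ± 0.03 with LPS (adjusted p = 3.28e-15).

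Akap12 (gravin), a scaffold at the plasma membrane, stood at 263, 283, 268 and 298 CPM in the IL-1β libraries, at 267, 304, 300 and 336 CPM in the LPS libraries, and at 417, 414, 413 and 409 CPM in the control libraries. Akap13 stood at 149, 148, 153 and 155 CPM in the IL-1β libraries, at 153, 151, 150 and 156 CPM in the LPS libraries, and at 214, 227, 220 and 224 CPM in the control libraries. For both genes, every treated library lay below every control and the treated groups overlapped. Akap12 fell by 0.57 ± 0.06 with IL-1β (adjusted p = 4.69e-06) and by 0.45 ± 0.06 with LPS (adjusted p = 4.44e-05). Akap13 fell by 0.55 ± 0.03 with IL-1β and by 0.54 ± 0.03 with LPS (adjusted p = 9.95e-16 and 1.79e-15).

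Akap6, a nuclear envelope anchor of muscle cells, stood at 0.922, 0.592, 0.622 and 1.07 CPM in the IL-1β libraries, at 0.841, 0.805, 1.17 and 1.01 CPM in the LPS libraries, and at 1.52, 2.15, 2.05 and 2.04 CPM in the control libraries. All treated libraries lay below all controls. Akap6 fell by 1.27 ± 0.20 with IL-1β (adjusted p = 7.73e-06) and by 1.01 ± 0.19 with LPS (adjusted p = 9.60e-05). Akap5, which also binds calcineurin and protein kinase C, stood at 17.4, 14.5, 16.6 and 15.6 CPM in the IL-1β libraries, at 21.4, 21.2, 33.1 and 23.9 CPM in the LPS libraries, and at 29.8, 25.9, 32.3 and 25.5 CPM in the control libraries. IL-1β libraries lay below all others, and LPS replicate 3 stood above every control. Akap5 fell by 0.81 ± 0.15 with IL-1β (adjusted p = 0.00136) and was at -0.19 ± 0.14 with LPS (adjusted p = 0.339). Without LPS replicate 3 it was called lower with LPS (-0.35, adjusted p = 9.28e-04).

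Akap10, another anchor found at mitochondria, rose by 0.28 ± 0.04 with IL-1β and by 0.39 ± 0.04 with LPS (adjusted p = 3.79e-06 and 1.37e-08), with means of 48.1 ± 1.79 CPM, 52.0 ± 1.94 CPM and, in controls, 39.5 ± 2.19 CPM. Akap2 rose by 0.08 ± 0.03 with IL-1β (adjusted p = 0.0271) and by 0.32 ± 0.03 with LPS (adjusted p = 2.02e-10). The IL-1β call was lost without control replicate 2 or 4 or IL-1β replicate 3 or 4 (0.06 to 0.07). RefSeq joins Akap2 with Palm2, which has its own row in the table, so its counts may be split. Akap7, the nuclear Akap8, the centrosomal and Golgi-associated Akap9 and Akap11 were not called with IL-1β or LPS, with log2 values between -0.04 and 0.12. Akap8 was called higher with LPS without control replicate 3 (0.10) and, when scaled by library size alone, with IL-1β (0.10) and LPS (0.12). The sperm sheath proteins Akap3 and Akap4 and the ciliary Akap14 had too few counts to test.

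Set directly against IL-1β, LPS gave lower transcripts of 6 of the 19 phosphodiesterases tested, with 13 not called, and higher Akap1, Akap2 and Akap5. Of 45 members tested, 5 were called higher and 7 lower with LPS and 33 were not called, a share of 26.7%. Over all genes tested, 21.9% were called, 11.3% higher and 10.6% lower. The 7 lower members were Pde2a, Pde3b, Pde4b, Pde4d, Pde5a and Pde7b, 6 of the phosphodiesterases raised by each stimulus, and Prkaca. Pde2a was lower with LPS by 0.69 (-0.69 ± 0.07, adjusted p = 5.05e-08), with 13.2 ± 1.82 CPM with LPS and 21.2 ± 0.626 CPM with IL-1β. Pde5a stood at -0.46 ± 0.04 (adjusted p = 1.03e-08), Pde4d at -0.42 ± 0.06 (adjusted p = 2.46e-06) and Pde4b at -0.28 ± 0.06 (adjusted p = 6.11e-04). Of the phosphodiesterases not called, Pde9a was at 0.09 ± 0.14 (adjusted p = 0.704), Pde4a at 0.14 ± 0.07 (adjusted p = 0.159) and Pde7a at 0.19 ± 0.07 (adjusted p = 0.0546). In the same contrast, all 10 endothelial markers were lower (median -0.40), as were 9 of 11 macrophage markers, with 1 higher (median -0.82), and 6 of 8 theca and steroidogenic markers, with none higher (median -0.81). Their part was not tested.

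Several calls in that contrast lay near the threshold and changed when 1 library was left out. Pde3b was at -0.27 ± 0.10 (adjusted p = 0.0421), and the call was lost without any 1 of the IL-1β libraries or without LPS replicate 2, 3 or 4 (-0.21 to -0.29). Pde7b, at -0.24 ± 0.07 (adjusted p = 0.0254), lost it without replicate 1 or 4 of LPS or of IL-1β (-0.20 to -0.24). Prkaca, at -0.11 ± 0.04 (adjusted p = 0.0343), lost it without LPS replicate 1 or 2 or IL-1β replicate 2, 3 or 4 (-0.08 to -0.11). Leaving out LPS replicate 1 brought 5 calls, Adcy3 (-0.23), Adcy4 (-0.56), Adcy9 (-0.13), Akap10 (0.13) and Akap12 (0.17). Prkar2b (-0.20) and Pde6a (-0.74) were called without IL-1β replicate 4, and Pde7a (0.22) without LPS replicate 2.

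The higher members in LPS against IL-1β were Akap1 (0.29 ± 0.03, adjusted p = 3.74e-07), Akap2 (0.24 ± 0.03, adjusted p = 3.11e-07), Akap5 (0.63 ± 0.15, adjusted p = 0.0164), Adcy2 (0.38 ± 0.07, adjusted p = 1.77e-04) and Prkar2a (0.13 ± 0.03, adjusted p = 0.00742). Adcy5 (-0.01 ± 0.06), Akap13 (0.01 ± 0.03) and Prkar1a (-0.04 ± 0.03) were not called in this contrast.

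**Figure D4:**
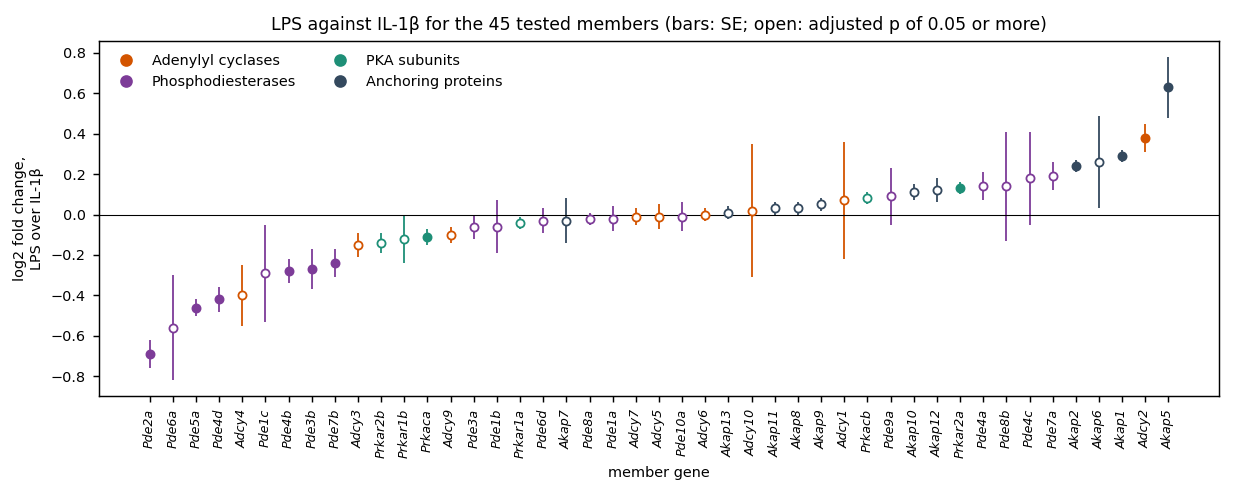
Log2 fold change of LPS over IL-1β with standard error for the tested members, by class, with filled points for calls at an adjusted p under 0.05. The 6 called phosphodiesterases lie below 0, led by Pde2a at -0.69, and the called anchoring proteins Akap1, Akap2 and Akap5 lie above it.

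Genes around the cAMP pathway moved in both directions, and their counts stand beside the 47.7% of all genes called with IL-1β, 42.5% with LPS and 21.9% in LPS against IL-1β. Among 28 receptors and G proteins tested, 12 were called higher and 6 lower with IL-1β, and 10 higher and 5 lower with LPS, with median log2 values of 0.23 and 0.10 (over all genes tested, 0.01 with each). Without LPS replicate 2, 8 were lower with LPS. Adora2b, an adenosine receptor that stimulates cyclase, averaged 11.0 ± 1.45 CPM with IL-1β, 10.7 ± 1.59 CPM with LPS and 1.73 ± 0.250 CPM in controls (2.67 ± 0.14 and 2.62 ± 0.14). Ramp3, a partner of calcitonin-family receptors, rose by 2.59 ± 0.14 with IL-1β and 1.86 ± 0.15 with LPS, and its relative Ramp1 fell by 1.66 ± 0.08 and 1.62 ± 0.08. Rgs2, a regulator of G protein signalling, rose by 1.32 ± 0.04 and 1.03 ± 0.04. Lhcgr, the luteinizing hormone receptor, rose by 1.45 ± 0.14 with IL-1β (adjusted p = 1.06e-09), to 5.52 ± 0.324 CPM against 2.02 ± 0.200 CPM in controls. With LPS it averaged 2.61 ± 0.704 CPM (0.38 ± 0.16, adjusted p = 0.0535, called without LPS replicate 2 or 3 at 0.42 and 0.48).

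Downstream of cAMP, PKA inhibitors, EPAC exchange factors and other effectors and carriers had 3 higher and 8 lower of 14 tested with IL-1β, and 3 higher and 6 lower with LPS (medians -0.14 and -0.04). Pkia, an inhibitor peptide of PKA, fell by 0.34 ± 0.05 with IL-1β and by 0.18 ± 0.04 with LPS. Rapgef4, a cAMP-activated exchange factor for Rap, rose by 1.23 ± 0.17 and 0.68 ± 0.17, and Nt5e, which forms adenosine from AMP, by 0.62 ± 0.03 and 0.42 ± 0.03. Enpp1, a nucleotide pyrophosphatase, was at -0.07 ± 0.03 with IL-1β (adjusted p = 0.0754; called at -0.09 without IL-1β replicate 1) and fell by 0.40 ± 0.03 with LPS.

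CREB factors and coactivators had 6 higher and 4 lower of 15 tested with IL-1β and 6 higher and 5 lower with LPS (medians -0.00 in each). Creb3, Creb3l1 and Creb3l2, membrane-bound factors of this family, fell by 0.45 ± 0.03, 0.21 ± 0.04 and 0.39 ± 0.04 with IL-1β and by 0.35 ± 0.03, 0.51 ± 0.04 and 0.51 ± 0.04 with LPS. Sik1, a kinase that restrains CREB coactivators, rose by 1.04 ± 0.09 and 0.64 ± 0.09. Early target genes of cAMP and CREB had 7 higher and 3 lower of 17 tested with IL-1β and 7 higher and 4 lower with LPS (medians 0.07 and 0.09). Nr4a1, an orphan nuclear receptor, rose by 2.09 ± 0.07 with IL-1β and 1.47 ± 0.07 with LPS, Ereg, an EGF receptor ligand, by 2.93 ± 0.26 and 2.83 ± 0.26, Junb by 0.89 ± 0.04 and 0.84 ± 0.04, and the kinase Sgk1 by 0.53 ± 0.04 and 0.27 ± 0.04. Ereg was low throughout, at 1.51 ± 0.187 CPM with IL-1β, 1.42 ± 0.135 CPM with LPS and 0.198 ± 0.0486 CPM in controls. The targets called lower were not among the 4 with the smallest p. Star, the protein that carries cholesterol into mitochondria, averaged 405 ± 15 CPM with IL-1β, 353 ± 27.4 CPM with LPS and 141 ± 13.1 CPM in controls (1.52 ± 0.07 and 1.33 ± 0.07).

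Genes that make and read cGMP had 5 higher and 5 lower of 12 tested with IL-1β, and 5 higher and 6 lower with LPS (medians 0.16 and 0.02). Nos2, the inducible nitric oxide synthase, averaged 12.3 ± 1.45 CPM with IL-1β, 40.2 ± 2.95 CPM with LPS and 6.07 ± 0.438 CPM in controls. Gucy1a3, a subunit of the nitric oxide-sensitive guanylate cyclase, rose by 0.56 ± 0.04 with IL-1β and 0.26 ± 0.04 with LPS. Prkg1, a cGMP-dependent kinase, fell by 1.39 ± 0.17 and 1.09 ± 0.16, and Npr3, a clearance receptor for natriuretic peptides, by 1.49 ± 0.15 and 1.19 ± 0.14. PKA-anchoring genes with other names had 10 higher and 7 lower of 19 tested with IL-1β and 8 higher and 7 lower with LPS (medians 0.12 and 0.16). Among these, Itpr1, a calcium release channel, fell by 1.18 ± 0.03 and 1.07 ± 0.03 and Pde4dip, a phosphodiesterase-binding scaffold, by 0.47 ± 0.04 and 0.31 ± 0.04, while Map2 rose by 1.02 ± 0.06 and 0.60 ± 0.06 and Rab32 by 0.76 ± 0.03 and 0.99 ± 0.03. In LPS against IL-1β, the calls higher and lower were 4 and 8 of the receptors and G proteins, 4 and 4 of the effectors, 2 and 6 of the CREB genes, 2 and 4 of the early targets, 1 and 4 of the cGMP genes and 4 and 4 of the other anchoring genes. Leaving out IL-1β replicate 2 left 1 receptor or G protein and 1 CREB gene called higher and 3 CREB genes called lower, and leaving out LPS replicate 2 or 3 left 2 receptors or G proteins. Without IL-1β replicate 3 or 4, or LPS replicate 3 or 4, 1 CREB gene was called higher.

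Among the marker lists, granulosa genes had 4 called higher and 1 lower of 6 with IL-1β and 2 higher and 1 lower with LPS, surface epithelium genes 2 higher and 3 lower of 8 with each stimulus, and the 5 neutrophil genes had too few counts to test. None of the granulosa genes was at 0 on average in any group, and their part in the results above was not tested.

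**Figure D5:**
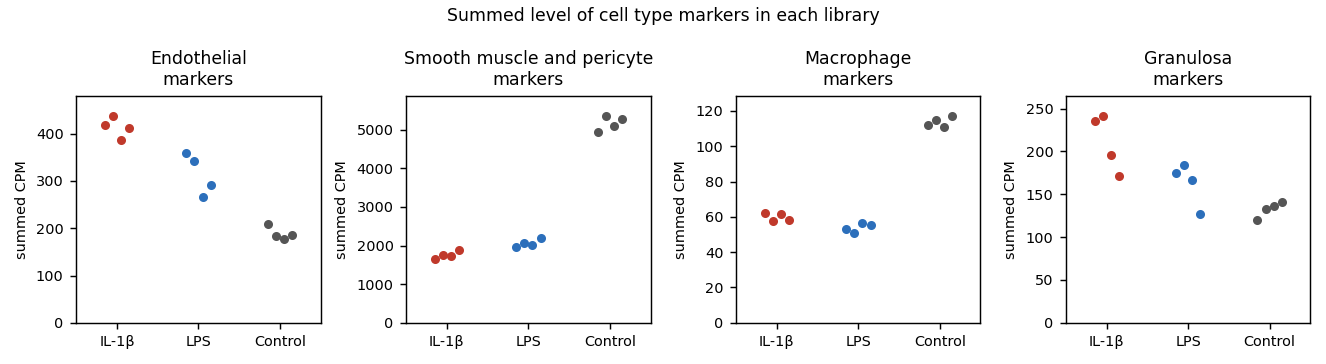
Summed CPM of the endothelial, smooth muscle and pericyte, macrophage and granulosa marker lists in each library, with IL-1β at left, LPS in the middle and control at right. Points are libraries, and each y axis starts at 0 with its own scale. Endothelial sums are highest with IL-1β, and smooth muscle and pericyte sums are highest in controls.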

How the data were processed

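RNA libraries of 12 samples, made with a TruSeq Stranded mRNA kit, were sequenced on an Illumina HiSeq, per the labels' protocols. The authors deposited 1 table of raw counts per gene for all 12 libraries. The submitters' processing notes name TopHat2 2.1.1, SAMtools, DESeq2 and the build Rnor_6.0. The counting program, its annotation and whether it used strand are not given in the sources used here. Without that setting, overlapping antisense genes cannot be told apart.

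Counts were fitted in edgeR 4.0.16 (R 4.3.3) over all 12 libraries with group as the term: filterByExpr, TMM scaling, robust quasi-likelihood dispersion and an F-test, adjusted by Benjamini-Hochberg over 17330 genes. The common biological coefficient of variation was 3.79%. SE is the absolute log2 fold change over the square root of F. No 2 libraries of a group agreed within sampling noise. The step was tested on simulated data. Alternatives were other scaling factors, other filters, DESeq2 1.42.0, limma-voom 3.58.1, the libraries of 2 groups alone, the replicate block, a stricter threshold and leaving out each library.

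The members and gene lists were chosen with earlier results of these data known. Library values are given for members averaging at least 1 CPM that were called with an absolute log2 fold change of at least 0.5, and for Prkaca and Prkar1a. From each gene list, the 4 genes with the smallest p against control are named, with Lhcgr and Star. Levels are not compared between genes, since no transcript lengths were used. Promoter windows come from RefSeq on GRCr8, which is not the authors' build, and 39 of 50 members had 1 or more. The others were Adcy3, Adcy6, Adcy8, Pde1b, Pde3b, Pde4c, Pde6d, Pde7a, Pde7b, Pde9a and Prkar2a. The NF-kB consensus is GGG, a purine, any 2 bases, 2 pyrimidines, CC.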

Additional observations from a re-analysis of the deposited data

Results flagged for a closer look

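In 51 groups of 4 libraries (the 17 genes given library by library, in 3 groups), 3 held a library far from the others by Dixon's test, and chance alone gives about 1 group in 20. Pde5a stood at 70.0 CPM in IL-1β replicate 4, against 74.7 to 75.4 CPM in the other IL-1β libraries. Pde4d stood at 9.17 CPM in control replicate 1, against 8.35 to 8.46 CPM in the other controls. Akap6 stood at 1.52 CPM in control replicate 1, against 2.04 to 2.15 CPM in the other controls.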

How the results depend on the processing

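Under 22 alternatives, no called member reversed its direction, and of 135 member comparisons 25 changed their call in at least 1 alternative. With no low-count filter, every row with at least 1 count was tested, which enlarges the base of the share called. The share of all genes called was then 28.9% with IL-1β, 26.0% with LPS and 13.7% in LPS against IL-1β, where 8 members were higher. Why more members were higher there was not tested. At an adjusted p under 0.01, that last contrast had 12.7% of genes called and 4 members lower. This threshold was set on the same fit, so it can only remove calls. With library size alone, the share of calls that were higher was 64.1% with IL-1β and 63.4% with LPS, against 51.7% and 53.0% with TMM, and the median over all genes moved to 0.06 and 0.05. In LPS against IL-1β, the Pde3b call was lost in DESeq2 (adjusted p = 0.0610), those of Pde7b and Prkaca with the 8 libraries of the compared groups alone (0.0779 and 0.0572) and that of Prkaca with no low-count filter (0.0641), while Adcy4 was called in DESeq2 and limma-voom (0.0129 and 0.0138). Prkar2b was likewise called lower in that contrast in DESeq2 and limma-voom (adjusted p = 0.0356 and 0.0498). Deviations of samples with the same number correlated weakly (-0.03 to 0.12), and not every library correlated best with its own number. Whether the number pairs cultures was not settled by this. With the replicate block, 11 members were higher and 11 lower with IL-1β, 14 and 11 with LPS, and 6 and 9 in LPS against IL-1β. The share of all genes called was then 49.3%, 44.6% and 24.6% in these comparisons, against 47.7%, 42.5% and 21.9% without the block. The per-length PKA shares were not run, since no transcript lengths were at hand. Depth limits the members under 1 CPM, such as Adcy1 and Pde8b, to standard errors near 0.3 on the log2 scale.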
